A study of Homo sapiens with 12 samples.

Results

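MPO, ELANE, PRTN3, AZU1 and CTSG encode enzymes and enzyme-like proteins packed into the primary (azurophil) granules of neutrophils, and SERPINB1 encodes an inhibitor that blocks the proteases among them inside the cell. The 6 genes were followed in HL-60, an established human promyelocytic leukemia cell line, by capture of DNA with an antibody against 5-methylcytosine (5mC, MeDIP) or against 5-hydroxymethylcytosine (5hmC, hMeDIP). A region was assigned to a gene when the deposited annotation placed it inside the gene or within 5000 bases upstream of its start. This gave 16 regions of the 393466 listed, of which 13 came from the 327931 regions of 5hmC and 3 from the 65535 regions of 5mC. Differentiated cells had been grown with 1.5% (211 mM) dimethyl sulfoxide (DMSO) for 7 days and sorted as CD11b-positive and SYTOX Blue-negative. Undifferentiated cells were sorted as negative for both, so the states are also a comparison of sorted fractions of 1 cell line. Each state had 3 biological replicates per the labels, and each DNA preparation was divided between both antibodies, which makes 12 libraries.

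Primary granules are built at the promyelocyte stage, when the genes of their proteins are strongly transcribed, and that transcription falls as neutrophil precursors mature. 5mC at a CpG is laid down by DNA methyltransferases, and TET enzymes oxidize it to 5hmC. Antibody capture measures how much marked DNA was pulled down, which also depends on CpG density and on the number of copies of a locus, and it does not measure transcription. Fewer marked cytosines per cell and fewer cells that carry the mark cannot be told apart.

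The promoter sequences show how differently CpG sites are placed at these starts. They are 300-base windows from RefSeq (GRCh38.p14), read 5′ to 3′ along the gene from 250 bases before the start to 50 bases after it, and capitals mark CpG sites. They were found for 4 of the 6 genes, not for MPO and ELANE. The windows are those of SERPINB1 at chr6:2841814-2842113 (minus strand), CTSG at chr14:24576201-24576500 (minus strand), AZU1 at chr19:827587-827886 (plus strand) and PRTN3 at chr19:840749-841048 (plus strand).
SERPINB1: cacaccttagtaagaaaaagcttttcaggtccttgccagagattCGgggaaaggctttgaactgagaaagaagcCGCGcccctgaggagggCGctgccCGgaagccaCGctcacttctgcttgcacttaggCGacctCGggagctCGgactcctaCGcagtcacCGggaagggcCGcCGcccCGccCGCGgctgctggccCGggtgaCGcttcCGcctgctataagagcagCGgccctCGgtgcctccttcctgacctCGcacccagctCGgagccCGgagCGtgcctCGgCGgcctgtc
CTSG: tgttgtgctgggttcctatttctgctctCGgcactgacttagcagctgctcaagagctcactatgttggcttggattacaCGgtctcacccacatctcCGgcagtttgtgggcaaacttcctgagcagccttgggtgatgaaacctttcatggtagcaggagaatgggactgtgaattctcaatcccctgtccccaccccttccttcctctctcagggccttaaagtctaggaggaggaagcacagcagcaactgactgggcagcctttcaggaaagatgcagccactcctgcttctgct
AZU1: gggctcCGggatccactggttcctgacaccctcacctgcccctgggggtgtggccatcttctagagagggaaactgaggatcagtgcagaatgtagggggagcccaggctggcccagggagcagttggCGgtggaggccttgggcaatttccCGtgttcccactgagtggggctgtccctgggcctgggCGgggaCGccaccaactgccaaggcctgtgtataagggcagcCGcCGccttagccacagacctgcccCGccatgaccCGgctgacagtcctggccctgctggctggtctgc
PRTN3: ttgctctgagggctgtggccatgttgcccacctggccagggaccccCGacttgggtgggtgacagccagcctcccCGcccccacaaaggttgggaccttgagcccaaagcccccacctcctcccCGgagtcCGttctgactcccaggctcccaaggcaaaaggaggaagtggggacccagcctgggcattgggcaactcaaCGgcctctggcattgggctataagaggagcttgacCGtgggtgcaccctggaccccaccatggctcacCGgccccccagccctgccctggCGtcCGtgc
The SERPINB1 window held 27 CpG sites, and 73.8% of 35116 RefSeq promoters held as many or fewer. The AZU1 and PRTN3 windows held 9 each (43.6% of promoters held as many or fewer), and the CTSG window held 3 (24.5%). GC content was 65.7% for SERPINB1, 53.0% for CTSG, 66.0% for AZU1 and 66.7% for PRTN3, so the AZU1 and PRTN3 windows were as GC-rich as that of SERPINB1 with fewer CpG sites. Letters of motifs of myeloid factors were searched on both strands. GAGGAA, the core bound by PU.1, occurred 2 times for CTSG, 1 time for PRTN3 and 0 times for AZU1 and SERPINB1, and 27.9% of all promoters held it. TTGCNNAA, a C/EBP motif, occurred 1 time each for AZU1 and PRTN3 and 0 times for CTSG and SERPINB1, against 10.5% of all promoters. The RUNX letters TGTGGT occurred in none of the 4 windows (13.1% of all promoters). The MYB core AACNG occurred 3 times for AZU1, 2 times each for CTSG and PRTN3 and 1 time for SERPINB1 (77.2% of all promoters). No matches of different motifs overlapped in these windows.

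No listed region of either mark overlapped the stretch from 250 bases before to 50 bases after the start of any of the 6 genes, with starts placed on hg19 (GRCh37) by the deposited distances. The regions described here lie further upstream or inside the genes, and the sequences above are therefore not sequences of captured regions. All region coordinates are hg19, counted from 1. Starts placed on hg19 by the deposited distances can differ from the RefSeq starts of the printed windows. Exons and introns were not told apart.

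The values rest on counts of reads per region. Totals over all 5hmC regions ran from 13010267 to 32495733 in differentiated and from 15688562 to 33693880 in undifferentiated libraries. The 5mC table holds only the regions with the smallest p-values in the authors' comparison of the same states, so its regions were already chosen for a difference. The sums of its listed counts, 7940755 to 9670011 in differentiated and 6076100 to 6851769 in undifferentiated libraries, are not library depth. Levels are given as CPM, read counts scaled to a common total over the listed regions after TMM scaling. Log2 fold changes are differentiated over undifferentiated from edgeR's quasi-likelihood test with n = 3 per state, and a change was called at a Benjamini-Hochberg adjusted p under 0.05.

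Of the 6 genes, 5 had a 5hmC region and 3 had a 5mC region. CTSG had neither, and AZU1 and SERPINB1 had 5hmC regions and no listed 5mC region. A gene missing from the 5mC list may still carry 5mC, because regions with larger p-values are not in that list. Per gene, 5hmC fell at MPO, rose at AZU1 and did not pass the test at ELANE, PRTN3 and SERPINB1. Over all 20404 genes tested for 5hmC, 25.8% were lower and 25.7% higher in differentiated cells, so 1 gene in each direction out of 5 is near the background. 5mC fell at MPO, ELANE and PRTN3, all 3 genes listed, against 43.2% lower and 41.0% higher of the 12637 genes tested in that selected list. Each of the 3 had 1 listed 5mC region, so its gene and region values of 5mC rest on the same reads. The median log2 fold change of the member genes was −0.07 for 5hmC, against 0.01 over all genes, and −0.50 for 5mC, against 0.00 over all genes.

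**Figure D1:**
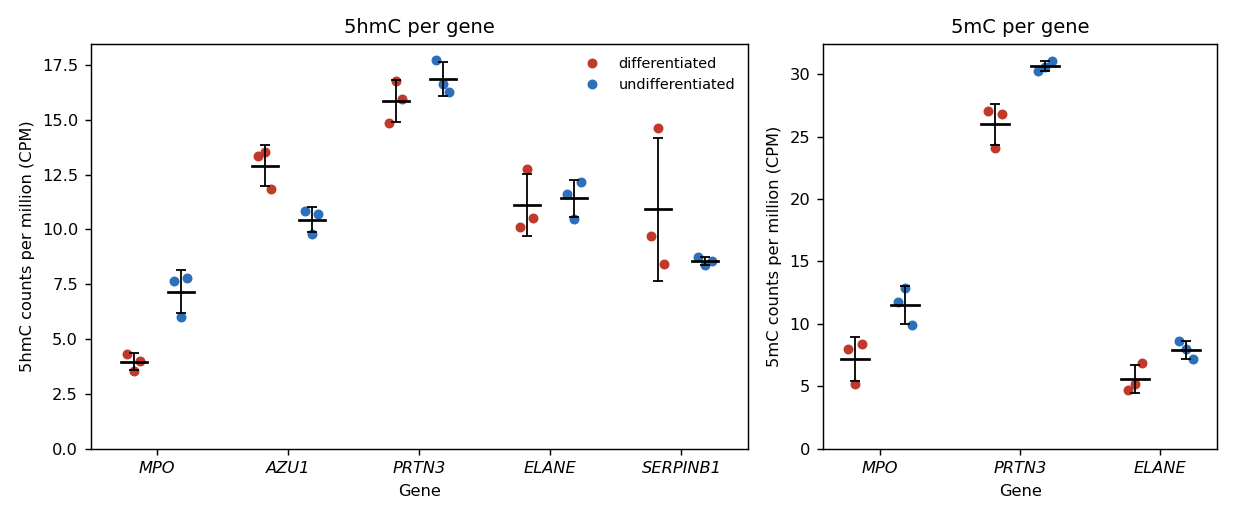
Normalised counts (CPM) per gene in each library for 5hmC and 5mC, with differentiated libraries on the left of each pair and undifferentiated ones on the right, and a bar at each mean. MPO was lower in all 3 differentiated libraries for both marks, and AZU1 was higher in all 3 for 5hmC.

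MPO, which encodes myeloperoxidase, the heme enzyme that makes hypochlorous acid, carried less of both marks in differentiated cells. Its 5hmC measured 4.34, 3.57 and 3.99 CPM in differentiated replicates 1, 2 and 3, against 7.67, 6.03 and 7.77 CPM in undifferentiated ones. These values come from 78, 40 and 128 reads in differentiated and 281, 123 and 129 reads in undifferentiated libraries. Every differentiated library was below every undifferentiated one, as for 29.5% of all genes. MPO averaged 3.97 ± 0.389 CPM in differentiated and 7.16 ± 0.978 CPM in undifferentiated cells (SD, n = 3 each). The log2 fold change was −0.84 (SE 0.132, edgeR adjusted p = 0.000239), so that 5hmC fell by 44.2%.

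5mC at MPO measured 8.02, 5.18 and 8.40 CPM in differentiated replicates and 11.8, 12.8 and 9.89 CPM in undifferentiated ones, again with no overlap (38.8% of listed genes were lower without overlap). The lowest of these, differentiated replicate 2, rests on 37 reads. Means were 7.20 ± 1.76 CPM in differentiated and 11.5 ± 1.50 CPM in undifferentiated cells (SD, n = 3 each), a log2 fold change of −0.65 (SE 0.155, edgeR adjusted p = 0.000186). Because each preparation was divided between the antibodies, the libraries of both marks are not independent samples of cells, and whether the marks changed by different amounts was not tested.

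All MPO regions lie upstream of the gene, which is on the minus strand of chromosome 17, and no region of either mark was listed in its body. A CpG island begins 1282 bases and ends 1921 bases downstream of the MPO start, and no listed region of either mark overlapped it. The nearer 5hmC region, chr17:56359401-56359800, ends 1105 bases upstream of the start. It measured 0.902, 0.627 and 0.751 CPM in differentiated and 1.60, 1.25 and 1.45 CPM in undifferentiated replicates, without overlap, as 25.9% of all 5hmC regions were lower without overlap. Its log2 fold change was −0.91 (SE 0.269, edgeR adjusted p = 0.00493), on 7 to 24 reads per differentiated and 24 to 59 per undifferentiated library. This call was lost without undifferentiated replicate 1 (−0.80, edgeR adjusted p = 0.0521) and with DESeq2 (−0.90, adjusted p = 0.0570).

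The farther 5hmC region, chr17:56362601-56365200, lies 4305 bases upstream and is 2600 bases wide. It measured 3.49, 2.96 and 3.26 CPM in differentiated and 6.02, 4.68 and 6.34 CPM in undifferentiated replicates. The states did not overlap, with a log2 fold change of −0.80 (SE 0.157, edgeR adjusted p = 8.8e-05). Per kilobase it held 1.24 CPM in differentiated and 2.18 CPM in undifferentiated cells, and 16.2% of all 5hmC regions had as little signal per kilobase or less. The MPO 5mC region, chr17:56362801-56364600, lies wholly within it, over 1800 bases. 5mC there measured 7.89, 5.09 and 8.23 CPM in differentiated and 12.0, 13.1 and 10.1 CPM in undifferentiated replicates, without overlap (43.0% of listed 5mC regions were lower without overlap). Its log2 fold change was −0.71 (SE 0.154, edgeR adjusted p = 0.000783 over the 328588 tests that the deposited p-values imply), and with DESeq2 it was −0.72 and did not pass (adjusted p = 0.0640). The same stretch upstream of MPO therefore yielded less DNA with either antibody from differentiated cells.

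The lower 5hmC reached past MPO. The neighbouring regions on both sides, up to LPO, the lactoperoxidase gene, and BZRAP1, were lower too, and these were singled out after their values were seen. They make a run of 5 consecutive 5hmC regions over 48.4 kb (chr17:56342801-56391200), with log2 fold changes of −0.91 to −0.74 and all 5 called. One of them, chr17:56375201-56375600, lies 16905 bases upstream of MPO and measured −0.89 (SE 0.248, edgeR adjusted p = 0.00329). A 5mC region that covers the same bases, chr17:56375001-56375600, fell as well, with −0.82 (SE 0.251, edgeR adjusted p = 0.0182). Within 100 kb of the MPO regions, 10 of 32 other 5hmC regions were lower and 5 higher (all regions, 23.3% lower and 27.0% higher), with a median of −0.05. Of the 9 other listed 5mC regions there, 7 were lower and 1 higher, against 37.0% lower and 35.7% higher in the whole list, with a median of −0.68.

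**Figure D2:**
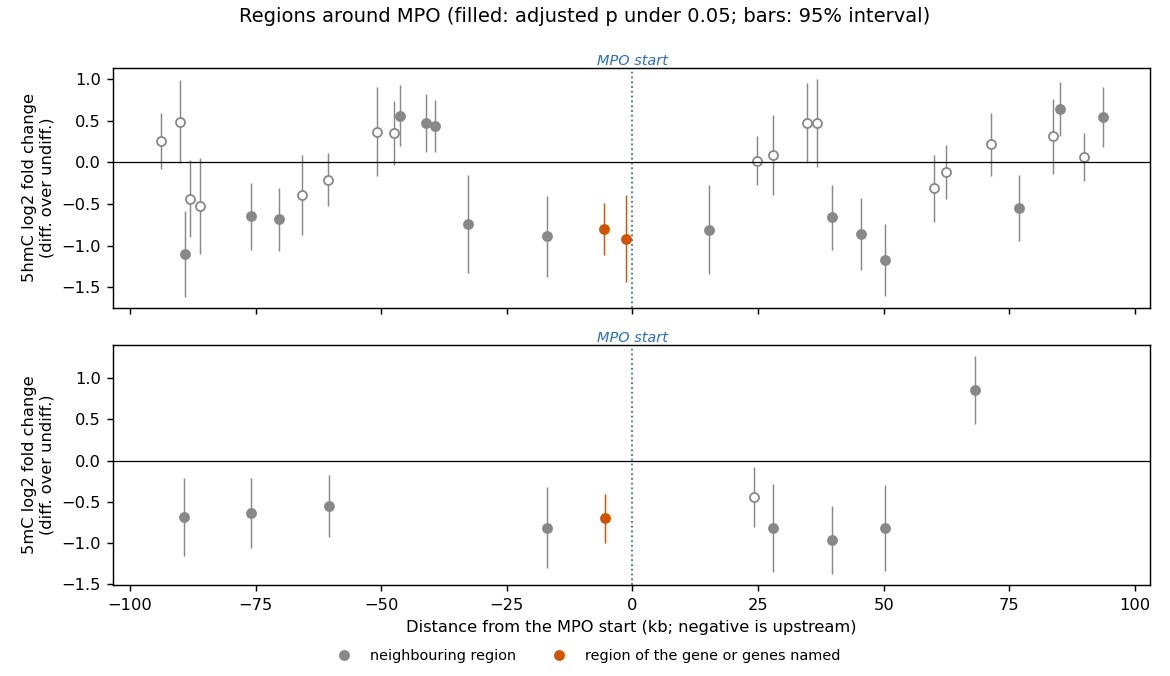
Log2 fold change (differentiated over undifferentiated, bars 95% interval) of each 5hmC region (top) and 5mC region (bottom) by distance in kb from the MPO start, with regions of MPO coloured and filled points at an adjusted p under 0.05. The MPO regions of both marks lie below 0 beside neighbours that are also below 0.

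By gene, the neighbours of MPO (8 symbols) showed no single direction in 5hmC. BZRAP1 rose (0.35) and so did EPX (0.20), the eosinophil peroxidase gene. LPO (−0.19), RNF43 (−0.38) and SUPT4H1 (−0.62) fell, 2 further genes did not pass, and TSPOAP1, the newer symbol of BZRAP1, does not occur in the tables. In 5mC, LPO (−0.65), RNF43 (−0.59) and SUPT4H1 (−0.59) fell and MKS1 (0.91) rose among 4 tested. BZRAP1 as a gene and its stretch near MPO thus went opposite ways in 5hmC, with 3 regions further from MPO in BZRAP1 called higher (0.44, 0.47 and 0.56).

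ELANE, PRTN3 and AZU1 lie side by side on the plus strand of chromosome 19 and share their neighbourhood, and 1 of their 5hmC regions belongs to both PRTN3 and ELANE. They are not independent of each other. The serine proteases neutrophil elastase (ELANE) and proteinase 3 (PRTN3) degrade matrix and bacterial proteins, and AZU1 encodes azurocidin, a relative without protease activity that kills bacteria and draws in monocytes.

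At ELANE, 5hmC measured 10.1, 12.7 and 10.5 CPM in differentiated replicates, against 11.6, 10.5 and 12.2 CPM in undifferentiated ones. The states overlapped, with means of 11.1 ± 1.41 CPM in differentiated and 11.4 ± 0.853 CPM in undifferentiated cells (SD, n = 3 each). The log2 fold change was −0.07 (95% interval −0.25 to 0.12, edgeR adjusted p = 0.563). Much of this sum comes from a region that reaches past the gene end and counts for a second gene too. That region holds 95, 74 and 178 of the 182, 143 and 337 reads in differentiated libraries. With only regions assigned to 1 gene, ELANE 5hmC was −0.13 (edgeR adjusted p = 0.407). The 5mC of ELANE measured 4.70, 5.18 and 6.88 CPM in differentiated and 8.60, 7.97 and 7.21 CPM in undifferentiated replicates. It fell without overlap, by a log2 fold change of −0.50 (SE 0.178, edgeR adjusted p = 0.0090). Without differentiated replicate 1 the 5mC value was −0.38 and no longer passed.

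The 4 ELANE 5hmC regions had fitted changes on both sides of 0, and none passed. The region nearest upstream of the start, chr19:849401-850000, ends 2292 bases before it and had a log2 fold change of −0.39 (SE 0.196, edgeR adjusted p = 0.0878), passing without differentiated replicate 2 (−0.51) or undifferentiated replicate 2 (−0.50) and with library totals (−0.59). The next one upstream, chr19:848601-849000, had 0.28 (SE 0.227, edgeR adjusted p = 0.287). The region shared with PRTN3, chr19:847201-847800, had −0.06, and the widest, chr19:856001-858400, which overlaps a CpG island at the 3′ end of the gene and lies upstream of CFD, had 0.00 (edgeR adjusted p = 0.987). The widest runs from 3709 to 6108 bases after the start of ELANE, a gene of 3941 bases, so most of it lies past the gene end. The ELANE 5mC region, chr19:849001-850200, lies 2092 bases upstream and fell. It measured 4.62, 5.09 and 6.75 CPM in differentiated and 8.76, 8.11 and 7.35 CPM in undifferentiated replicates, a log2 fold change of −0.55 (SE 0.178, edgeR adjusted p = 0.0238). The region did not pass with DESeq2 (−0.56), nor when any of differentiated replicates 1 (−0.44) and 2 (−0.51) or undifferentiated replicates 1 (−0.49) and 2 (−0.55) was left out. The 5hmC region at 849401 covers 50.0% of its bases.

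PRTN3 showed a similar split between the marks, with 5mC lower and 5hmC short of the threshold. Its 5hmC measured 14.9, 16.8 and 16.0 CPM in differentiated and 17.7, 16.6 and 16.3 CPM in undifferentiated replicates, which overlap. The log2 fold change was −0.10 (95% interval −0.24 to 0.03, edgeR adjusted p = 0.219). Its 5mC measured 27.0, 24.1 and 26.8 CPM in differentiated and 30.3, 30.6 and 31.1 CPM in undifferentiated replicates, without overlap. That is a log2 fold change of −0.23 (SE 0.0858, edgeR adjusted p = 0.0116), the smallest of the 3 listed genes on the log2 scale, and it no longer passed without differentiated replicate 2 (−0.19). Whether 5mC and 5hmC changed by different amounts at ELANE or PRTN3 was not tested.

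Inside PRTN3, 1 of the 5hmC regions passed. The region at chr19:842201-842800 began 1215 bases after the start and measured 1.80, 1.88 and 1.63 CPM in differentiated and 2.60, 2.41 and 2.53 CPM in undifferentiated replicates. It fell without overlap, by a log2 fold change of −0.54 (SE 0.195, edgeR adjusted p = 0.0186), and lost the call without differentiated replicate 3 (−0.46) or undifferentiated replicate 1 (−0.51) and with DESeq2 (−0.52). The region 400 bases wide just before it, chr19:841401-841800, measured 2.42, 1.43 and 1.88 CPM in differentiated and 1.33, 1.74 and 1.15 CPM in undifferentiated replicates. It had a log2 fold change of 0.47 (SE 0.223, edgeR adjusted p = 0.0674) and overlapping states, and passed without differentiated replicate 2 (0.57) or undifferentiated replicate 2 (0.62). A sum per gene holds both. Further into the gene, chr19:844801-846200 had −0.11 (edgeR adjusted p = 0.626).

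The widest member region of each mark lies upstream of PRTN3 and covers a CpG island. Its 5hmC region, chr19:835601-839400, measured 7.38, 9.05 and 8.77 CPM in differentiated and 9.30, 9.12 and 8.03 CPM in undifferentiated replicates, with a log2 fold change of −0.08 (95% interval −0.37 to 0.21, edgeR adjusted p = 0.642). The 5mC region inside it, chr19:835801-839200, measured 26.6, 23.7 and 26.3 CPM in differentiated and 30.8, 31.1 and 31.7 CPM in undifferentiated replicates. 5mC fell there by a log2 fold change of −0.29 (SE 0.0908, edgeR adjusted p = 0.0225). It did not pass with DESeq2 (−0.29), nor without differentiated replicate 2 (−0.24), undifferentiated replicate 2 (−0.29) or undifferentiated replicate 3 (−0.27). CpG islands were overlapped by 3 of the 13 member 5hmC regions (1.73% of all 5hmC regions) and by 1 of the 3 member 5mC regions (2.35% of all), all of them in the chromosome 19 cluster.

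AZU1 was the one member called higher in 5hmC as a gene. It measured 13.4, 13.6 and 11.8 CPM in differentiated and 10.8, 9.80 and 10.7 CPM in undifferentiated replicates, and the states did not overlap. Such separation is common: of all 20404 genes, 11643 had no overlap in 5hmC, 6024 of them lower and the rest higher. AZU1 averaged 12.9 ± 0.949 CPM in differentiated and 10.5 ± 0.568 CPM in undifferentiated cells (SD, n = 3 each), a log2 fold change of 0.28 (SE 0.0844, edgeR adjusted p = 0.0146) or a rise of 21.1%. All of it comes from 1 region inside the gene, chr19:828401-830000, which begins 569 bases after the start. Tested as a region, with the spread estimated over regions, the same counts gave 0.31 (SE 0.149, edgeR adjusted p = 0.0706). The gene's call is lost with DESeq2 (0.30, adjusted p = 0.0501) and under scaling to library totals (0.09), and without differentiated replicate 1 or undifferentiated replicate 2 (0.24 each).

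**Figure D3:**
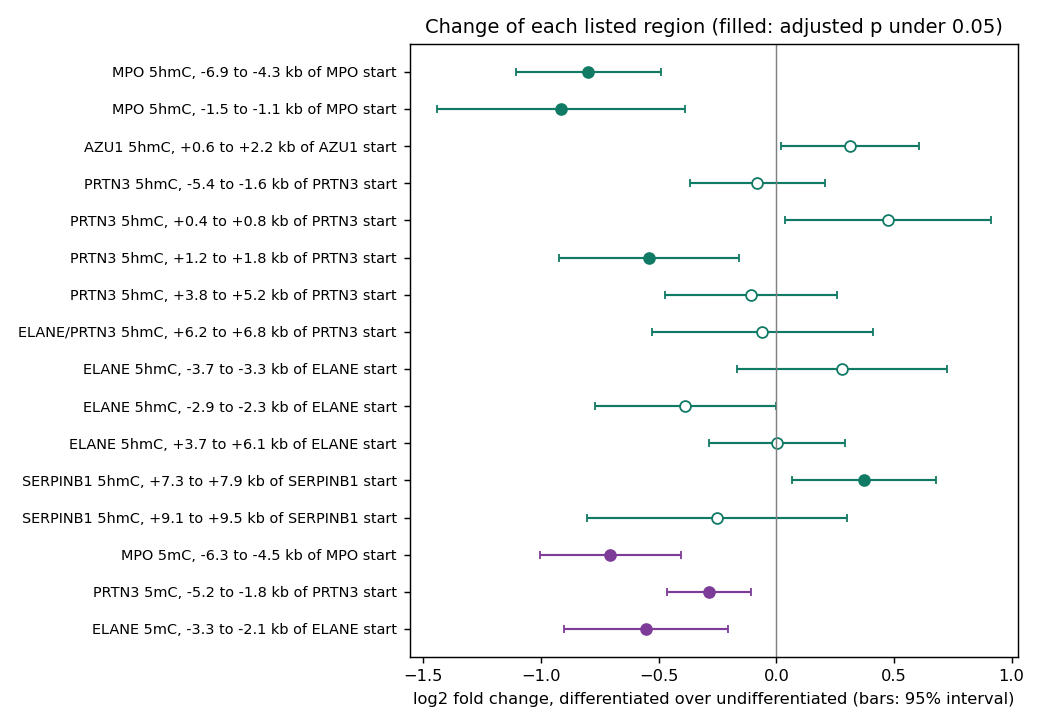
Log2 fold change (differentiated over undifferentiated, bars 95% interval) of each region of the member genes for 5hmC and 5mC, with filled points at an adjusted p under 0.05. The 5mC regions all lie below 0, and the 5hmC regions lie on both sides of it.

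Around the cluster, 9 of 70 other 5hmC regions within 100 kb were higher and 14 lower (all regions, 27.0% higher and 23.3% lower). The median of the 70 was −0.00. Of 4 other listed 5mC regions, 1 was higher and 2 lower (whole list, 35.7% higher and 37.0% lower). The higher one, chr19:815601-820000, lies in LPPR3, 7832 bases upstream of AZU1, and had a log2 fold change of 0.27 (edgeR adjusted p = 0.0117). Among the 8 listed neighbour genes of the cluster, 7 were tested for 5hmC, of which ARID3A (−0.19) and KISS1R (−0.55) fell and none rose. ARID3A (−0.87) and PALM (−0.26) fell in 5mC, the only neighbours listed there.

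**Figure D4:**
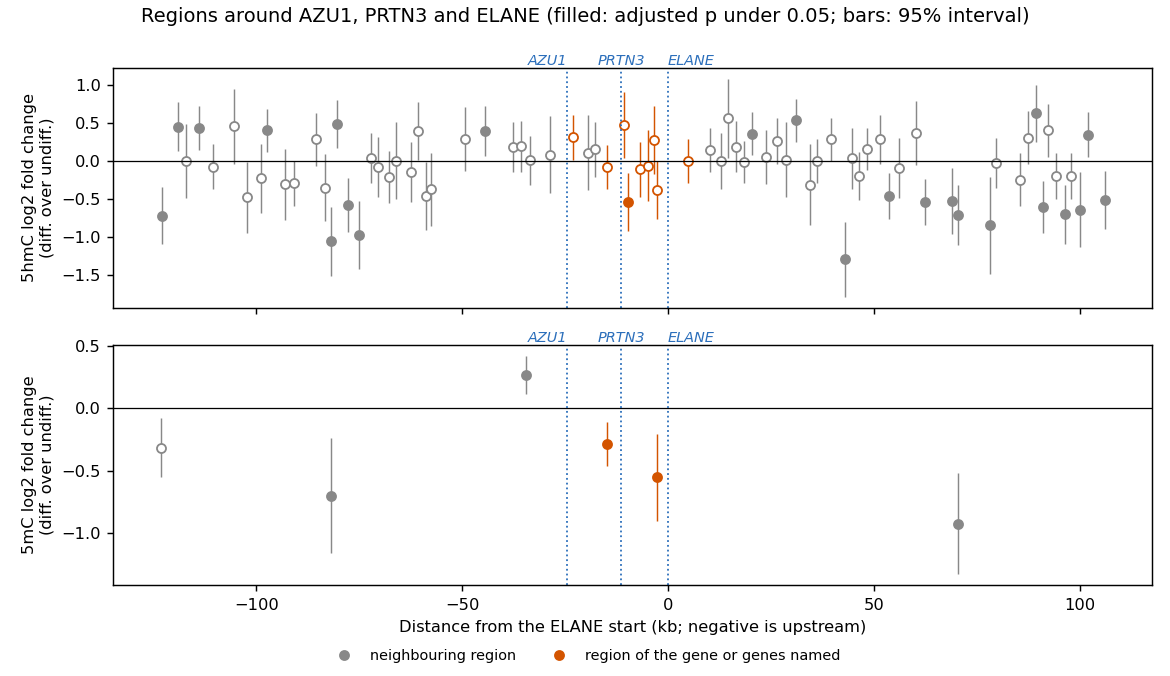
Log2 fold change (differentiated over undifferentiated, bars 95% interval) of each 5hmC region (top) and 5mC region (bottom) by distance in kb from the ELANE start, with regions of AZU1, PRTN3 and ELANE coloured and filled points at an adjusted p under 0.05. The 5hmC regions of the cluster scatter about 0, and both of its 5mC regions lie below 0.

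CTSG, the gene of the serine protease cathepsin G, had no region of either mark in its body or within 5000 bases upstream of its start on chromosome 14. The nearest 5hmC region, chr14:25037801-25038400, lies 4325 bases past the gene end. It held 13, 13 and 22 reads in differentiated and 44, 37 and 23 in undifferentiated libraries, with a log2 fold change of −0.83 (SE 0.275, edgeR adjusted p = 0.0116). The nearest listed 5mC region lies 9935 bases upstream, at chr14:25055401-25055800, and went the other way. It held 58, 53 and 54 reads in differentiated and 29, 27 and 27 in undifferentiated libraries, with a log2 fold change of 0.75 (SE 0.201, edgeR adjusted p = 0.00673). Of the other granzyme and chymase genes of this locus, CMA1, the mast cell chymase gene, rose in 5hmC (0.66), and GZMB and GZMH were not listed for either mark. Within 100 kb of the CTSG start, 4 of 15 regions of 5hmC were higher and 4 lower (all regions, 27.0% and 23.3%).

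SERPINB1, whose product blocks elastase, proteinase 3 and cathepsin G, did not pass in 5hmC as a gene. It measured 9.69, 14.6 and 8.42 CPM in differentiated and 8.76, 8.38 and 8.55 CPM in undifferentiated replicates. Differentiated replicate 2 stood above all others, and the states overlapped. The log2 fold change was 0.25 (95% interval −0.04 to 0.54, edgeR adjusted p = 0.170). Leaving out differentiated replicate 3 gave 0.45 with a call (edgeR adjusted p = 0.0161), and leaving out differentiated replicate 2 gave 0.055 without one (edgeR adjusted p = 0.651).

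Both SERPINB1 regions lie near the 3′ end of the gene, on chromosome 6. The region at chr6:2834401-2835000 was among the strongest of all, at 16.8 CPM per kilobase in differentiated and 12.5 CPM per kilobase in undifferentiated cells, above 99.3% of 5hmC regions. It measured 9.02, 13.6 and 7.55 CPM in differentiated and 7.46, 7.04 and 7.97 CPM in undifferentiated replicates, so the states overlapped. Over the strongest 5% of all 5hmC regions per kilobase, differentiated replicate 2 was also highest, with a median of 7.97 CPM. Differentiated replicates 1 and 3 had medians of 6.65 and 5.95 CPM there. The part of this in the SERPINB1 value was not tested. The SERPINB1 region passed with a log2 fold change of 0.37 (SE 0.157, edgeR adjusted p = 0.0418). Without differentiated replicate 2 it was 0.13, and it kept the call only when differentiated replicate 3 was the library left out (0.34 to 0.43 without each of the others). DESeq2 (0.41) and library totals (0.14) also gave no call. The second region, chr6:2832801-2833200, had −0.25 (SE 0.282, edgeR adjusted p = 0.439). A CpG island begins 9 bases after the SERPINB1 start as placed by the deposited distances, which need not be the start of the printed window. No listed region of either mark overlapped this island.

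Just outside the 5000-base limit, a 5hmC region 5318 bases upstream of SERPINB1 (chr6:2847601-2848400) had a log2 fold change of −0.75. The 5hmC region nearest to the limit on its inner side, 4492 bases upstream of ELANE, had −0.06. Within 100 kb of the SERPINB1 regions, 9 of 33 other 5hmC regions were higher and 5 lower, with a median of 0.15. All 4 other listed 5mC regions there were higher. Over all regions, 27.0% were higher and 23.3% lower in 5hmC, and 35.7% and 37.0% in the 5mC list. In the neighbour list, SERPINB9 (0.21), a granzyme B inhibitor, and DKFZP686I15217 (0.26) rose in 5hmC and none of 6 fell. In 5mC, WRNIP1 (0.41), NQO2 (0.71) and SERPINB9 (0.43) rose, and MYLK4 (−0.87) and SERPINB6 (−0.35) fell.

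Of the 13 member 5hmC regions, 3 were called lower, both regions of MPO and 1 of PRTN3, and 1 was called higher, in SERPINB1. Over all 5hmC regions 23.3% were lower and 27.0% higher, so the members' share of lower regions is near the background. Their share of higher regions, 1 of 13, lies below it, and this difference was not tested. The 1 higher call held in 1 of 6 fits with a library left out. The regions of AZU1 and SERPINB1 with fitted increases also carried the most 5hmC per kilobase of the members, above 97.3% and 99.3% of all regions. The strongest 5% of all 5hmC regions per kilobase (16396 regions) had a median log2 fold change of 0.43, with 58.9% higher and 7.23% lower. The part of signal strength in the AZU1 and SERPINB1 values was not tested. Per kilobase of listed region, gene levels of 5hmC were 10.9 CPM in differentiated and 8.57 CPM in undifferentiated cells for SERPINB1, and 8.07 CPM in differentiated and 6.53 CPM in undifferentiated cells for AZU1. They were 2.78 CPM in differentiated and 2.85 CPM in undifferentiated cells for ELANE, and 2.33 CPM in differentiated and 2.48 CPM in undifferentiated cells for PRTN3. MPO had 1.32 CPM per kilobase in differentiated and 2.39 CPM per kilobase in undifferentiated cells, the lowest of the 5 genes in both states.

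The scaling sets the zero of these comparisons. Scaled to library totals in place of TMM, the median log2 fold change of all genes was −0.19 for 5hmC and −0.31 for 5mC, and 15.7% of called 5hmC genes were higher, against 49.9% with TMM. For 5mC genes that share was 17.1% with library totals, against 48.7% with TMM. MPO 5hmC was −1.03 with library totals and lay below the median of all genes under each scaling. ELANE (−0.26) and PRTN3 (−0.30) then passed as lower in 5hmC, close to that shifted median, and AZU1 did not pass. 5mC at MPO, ELANE and PRTN3 stayed below the median of all genes under each scaling.

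**Figure D5:**
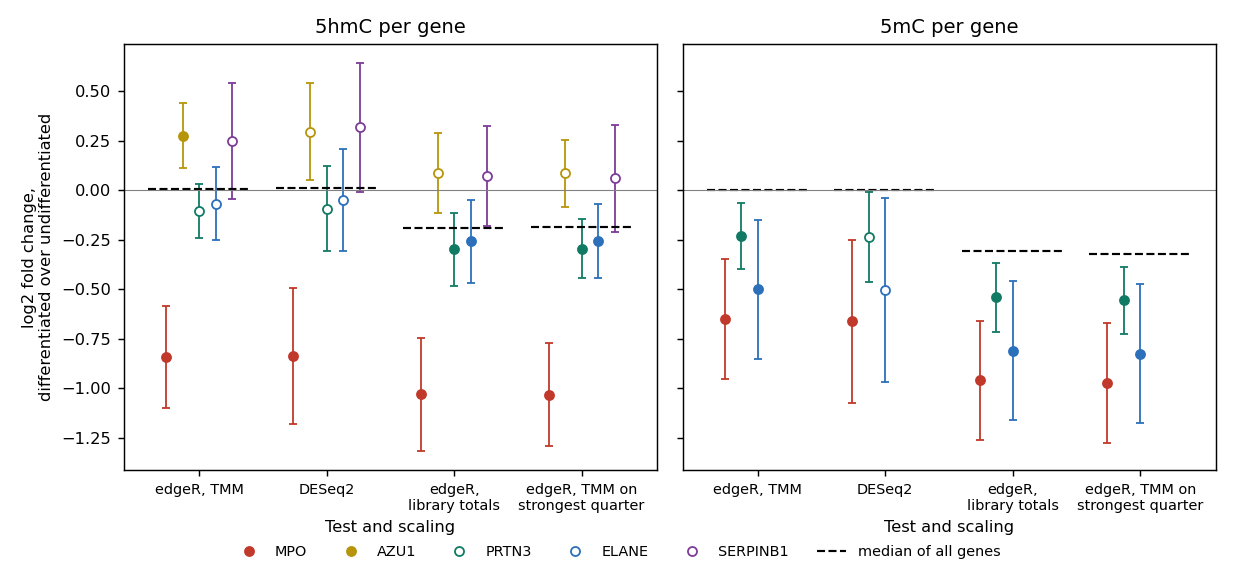
Log2 fold change (differentiated over undifferentiated, bars 95% interval) of each member gene for 5hmC (left) and 5mC (right) under 4 combinations of test and scaling, with filled points at an adjusted p under 0.05 and dashed lines at the median of all genes. MPO lies below the dashed line throughout, and AZU1 passes only with edgeR after TMM scaling.

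Other proteins of primary granules and lysosomes, and inhibitors of granule proteases, went both ways. Of 29 such genes, 23 were tested for 5hmC, of which 5 rose, 6 fell and 12 did not pass, with a median log2 fold change of −0.06. Over all genes tested for 5hmC, 25.7% rose and 25.8% fell, so these counts are near the background. The genes with the smallest p-values were split. FUCA1, a lysosomal fucosidase, fell (−0.53), and so did LYZ, which encodes lysozyme (−0.64). CTSB, the cathepsin B gene (−0.35), and PRSS57, a further serine protease of these granules (−0.25), fell as well. Increases were found for CTSD, the cathepsin D gene (0.45), SLPI (1.07) and SERPINA1 (0.83), and the products of SLPI and SERPINA1 are secreted inhibitors of elastase. In 5mC, 11 of the 29 were listed, 5 higher and 6 lower, with a median of −0.35. Of all listed genes, 41.0% were higher and 43.2% lower in 5mC. FUCA1 (−0.72) and LYZ (−0.54) fell in 5mC too, as MPO did, whereas CTSB rose in 5mC (0.26) and fell in 5hmC. SERPINA1 rose in both marks (0.65 in 5mC).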

How the data were processed

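HL-60 cells in 2 states were profiled by MeDIP and hMeDIP, 3 libraries per state and mark. Per the submitters' processing notes, the build was hg19 (GRCh37) and the tools included SICER 1.1, edgeR 2.11, bedtools 2.17.0, SAMtools 0.1.18 and BWA, with no role stated. The deposited counts are unnormalized reads per enriched region, with edges on a 200-base grid, and no input library was analysed here. The authors also deposited log2 fold changes (undifferentiated over differentiated) and mean log2 CPM, which were not used, and p-values. Per the file headers, distances give the nearest gene, start and CpG island. The deposited 5mC table ends at a p-value of 0.0165 and an adjusted p-value of 0.0826, which imply 328588 tests, and 5mC region p-values were adjusted over that number. Those of 5mC genes carry no correction for the selection, and both can be too small.

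Of 327949 5hmC regions, 18 with a blank count were left out. Gene counts were summed over regions inside a gene or up to 5000 bases upstream. Differentiated libraries were compared with undifferentiated ones on all regions or genes in edgeR 4.0.16 (R 4.3.3), with filterByExpr, TMM, the quasi-likelihood test, Benjamini-Hochberg adjustment and a threshold of 0.05. The spread was estimated separately for regions and genes. Alternatives used DESeq2 1.42.0, other scaling, no filter, other region rules, a replicate block and each library left out. Standard errors come from the fold change and F statistic, and 95% intervals are normal ones. The tests were checked on simulated data, with a fixed spread larger than the common one fitted to these data and with few features changed. There, a factor of 0.5 in 5hmC was recovered for 100% of 50 genes and 20% of 50 regions. A factor of 2 was recovered for 96% of 5hmC genes and 58% of 5hmC regions, and a factor of 1.5 for 36% and 4%. In 5mC, a factor of 1.5 was recovered for 46% of genes and 12% of regions. In these data many features were called (for 5hmC regions, 23.3% lower and 27.0% higher) and the fitted spread was smaller. These recovery rates therefore do not measure how often the tests here miss a change. Small changes that did not pass can still have been missed.

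The named genes are all members with all their regions, the neighbour list, and of the granule list the 8 with the smallest 5hmC p-values among those past the threshold in either mark, of which 1 is not reported here. Members and lists were chosen with earlier results of these data known. The labelled cell type could not be checked by expression.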

Additional observations from a re-analysis of the deposited data

How the results depend on the processing

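At MPO, the gene calls of both marks held under all alternatives that gave a value (13 for 5hmC, −1.03 to −0.77, edgeR or DESeq2 adjusted p up to 0.00430; 12 for 5mC, −0.98 to −0.49, up to 0.00660), and counts over the gene body alone gave none. The MPO 5mC gene value comes from 1 region, and as a region the same reads did not pass with DESeq2 (−0.72, adjusted p = 0.0640). AZU1 5hmC lost its call with DESeq2 (0.30), TMM on the strongest features (0.085), library totals (0.087) and regions within 2000 bases (0.21). AZU1 5hmC was 0.24 to 0.36 with a library left out. The 2000-base limit keeps the 1 AZU1 region, so 0.21 rests on the same AZU1 reads, fitted with a different set of genes. With strongest-feature and library-total scaling, ELANE (−0.26 and −0.26) and PRTN3 (−0.30 and −0.30) passed in 5hmC. With DESeq2, 5mC lost its call at ELANE (−0.50) and PRTN3 (−0.24). With a library left out, ELANE 5mC was −0.69 to −0.38, PRTN3 5mC −0.26 to −0.19 and SERPINB1 5hmC 0.055 to 0.45.
The count of genes higher in 5hmC, 1, became 0 with DESeq2, both other scalings and the 2000-base limit, and 0 to 2 with a library left out. That of genes lower in 5hmC, 1, became 3 with both other scalings. It was 0 with the gene body alone, where MPO has no region. That of genes lower in 5mC, 3, became 1 with DESeq2. Within 2000 bases only PRTN3 had a value, and it kept its call (−0.41). The 5mC regions of MPO and ELANE lie 4505 and 2092 bases upstream, outside that limit. Regions higher in 5hmC, 1, became 0 with DESeq2, both scalings and the replicate block (SERPINB1, 0.37, edgeR adjusted p = 0.0778), and 0 to 1 with a library left out. Regions lower in 5hmC, 3, became 1 with DESeq2 and 1 to 4 with a library left out. Regions lower in 5mC, 3, became 0 with DESeq2 and 1 to 3 with a library left out. The cause of the changes where a region was still counted was not tested.
Fitted changes near 0 turned round. The ELANE region at 856001 (0.0029) was −0.21 with both scalings, −0.071 without differentiated replicate 2 and −0.03 without undifferentiated replicate 2, within −0.071 to 0.054 over all left-out libraries. The region at 847201 (−0.06) was 0.07 and 0.05 without differentiated replicates 1 and 3, and 0.14 without undifferentiated replicate 3. PRTN3 at 835601 was 0.0029 without differentiated replicate 1 (−0.14 to 0.0029 over all), and PRTN3 at 844801 was 0.082 without undifferentiated replicate 1 (−0.23 to 0.082 over all).
Deviations of same-numbered libraries correlated at 0.0005, −0.10 and −0.11 for 5hmC and 0.01, 0.01 and −0.01 for 5mC over regions. Same-numbered libraries thus shared little deviation, which does not tell whether they were prepared together. The replicate block changed no gene call. Depth limits the narrow regions: the nearer 5hmC region of MPO holds 7 to 59 reads per library.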
